A study of Mus musculus with 6 samples.

Results

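Immediate early and activation response genes are grouped for their transcription early after a stimulus. Some listed here, such as Klf4 and the BTG genes, are known for restraining proliferation. A level of the set is therefore not read as a degree of stimulation. The set described here holds 40 of the 19938 mouse genes that the arrays measured with at least 1 named transcript cluster, the array's unit for a whole transcript. The genes were listed by symbol, and each was read from the cluster with the highest mean over the 6 arrays; every one of the 40 had a single cluster. RNA came from CD4+TCRβ+ cells, which are T helper cells, sorted by flow cytometry from inguinal, brachial and axillary lymph nodes of naive females aged 8 weeks. In the B6-ChrY SJL group the females were offspring of C57BL/6J consomic sires that carry the Y chromosome (ChrY) of the SJL strain. In the B6 group they were wild-type C57BL/6J females. No female carries a ChrY, so the strains compared differ in the ChrY of the father, and all mice were unimmunized. Each strain had 3 pools of 5 mice, with 1 array per pool. Sorted cells of a lymph node are a mixture of naive, memory and regulatory T cells, which limits what a pool stands for. Values are deposited log2 values, on which a difference of 1 is a factor of 2, and every difference is B6-ChrY SJL minus B6. Cells were stained on ice and sorted before RNA was isolated, and the effect of this handling on these transcripts was not tested. The comparison asks whether the sorted cells of the unimmunized B6-ChrY SJL daughters differed in these transcripts.

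Immediate early genes need no new protein to be transcribed. Signals from the T-cell receptor, and also growth factors and cell stress, reach their promoters through kinases that act on transcription factors already present, such as the serum response factor and CREB. The first wave encodes transcription factors of the AP-1, EGR and NR4A families. Alongside it come proteins that end the signal: phosphatases of the MAP kinases, inhibitors of NF-κB and proteins that destroy short-lived mRNAs.

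The arrays were alike, with pairwise Pearson's r of 0.991 to 0.993 over all transcripts and medians of 6.41 to 6.44. Of 35556 deposited clusters, 23410 had a gene name and were tested with limma. A background level of 5.98, below which 95% of the 1205 vomeronasal and olfactory receptor transcripts lay, was set from the same arrays, and 39 of the 40 genes lay above it. The exception was Ier3, with a mean of 5.63. Of 8 T cell markers 7 were measured, all above background, with log2 fold changes of −0.08 (Cd5), −0.03 (Cd4), 0.01 (Cd3e) and 0.08 (Cd28) for the 4 of smallest p. The number of arrays limits the precision: with 3 pools a strain, the smallest p that an exact permutation test allows is 0.1.

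None of the 40 genes differed between the strains at a false discovery rate of 0.05 in limma, where 0.0171% of all tested clusters (4 of 23410) did so, 0.0128% lower and 0.00427% higher. The methods' linear model, which does not moderate the variances, also called 0 of them. At an unadjusted p under 0.05 in limma, 10 genes were lower and 1 was higher in B6-ChrY SJL cells. In limma that share is 5.92% for lower and 4.69% for higher among all tested clusters. Among the clusters above background it is 7.16% and 3.99%. The 10 lower genes were Jun, Nr4a1, Nr4a2, Klf4, Klf10, Ier2, Ier5, Dusp4, Nfkbia and Irf4, and the higher one was Tnfaip3. The methods' model gave 4 lower and 1 higher, beside 5.79% and 3.92% of all tested clusters. With quantile normalization repeated over the tested clusters the split was 8 lower and 2 higher, beside 5.09% and 5.04%. Of the 40 log2 fold changes, 32 were below 0 and 8 above, while 51.1% of all tested clusters and 57.6% of genes above background were below 0. The median was −0.13, against −0.0036 over all tested clusters and −0.02 over genes above background. The lowest value was −0.51 for Fosb and the highest 0.24 for Tnfaip3. The count of lower genes was 6 without B6 replicate 3 or without B6-ChrY SJL replicate 2, and 13 without B6 replicate 2 or without B6-ChrY SJL replicate 3. Without B6 replicate 3 the median was −0.07 and the share of lower calls over all clusters was 4.39%. The adjusted p given for a gene is limma's, corrected over all 23410 clusters.

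**Figure D1:**
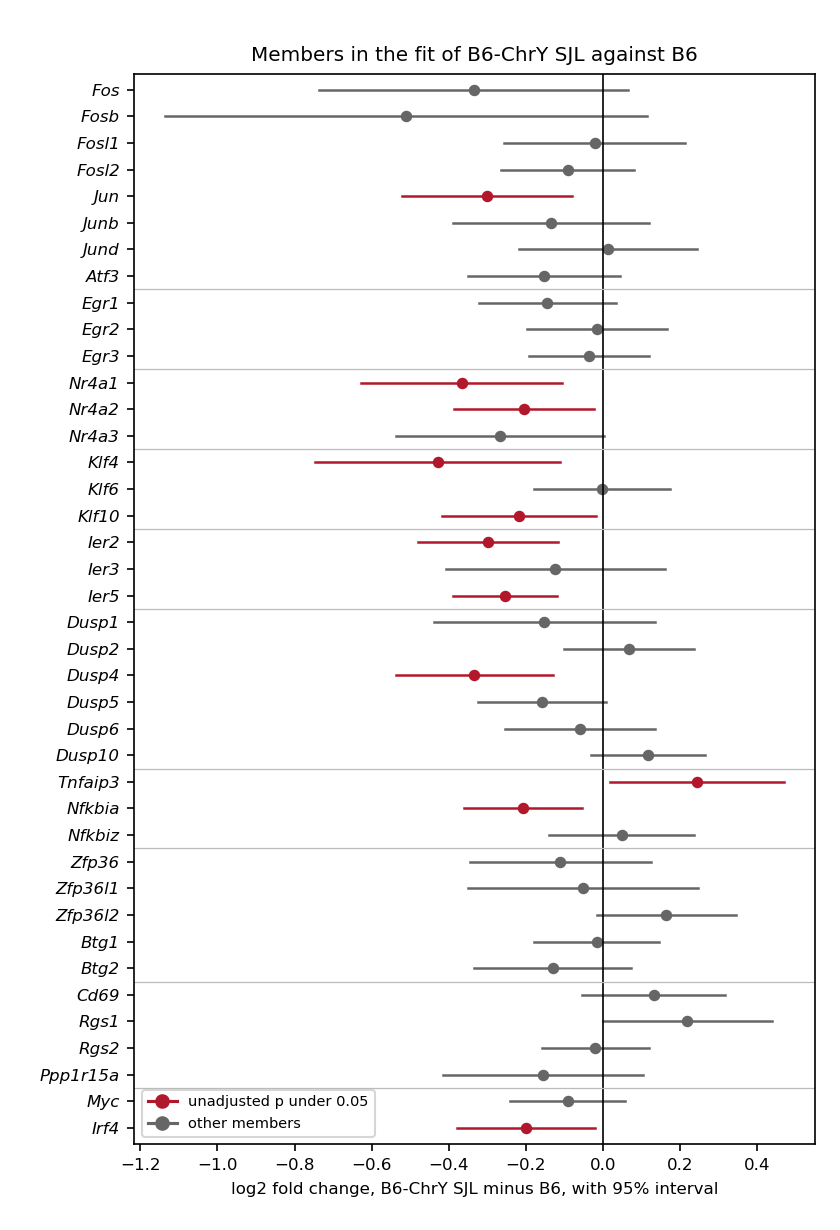
Log2 fold change (B6-ChrY SJL minus B6) of each of the 40 genes on the horizontal axis, with its 95% interval from limma, n = 3 pools per strain. Grey lines separate the role groups, and the 11 genes in red had an unadjusted p under 0.05. Points left of 0 are lower in B6-ChrY SJL cells, and 32 of the 40 lie there.

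Pool by pool, B6 replicate 3 held the highest value for 23 of the 40 genes and the lowest for 0, while over all genes above background it was highest for 21.6% and lowest for 13.1%. B6-ChrY SJL replicate 2 held the lowest value for 19 of the 40, where 16.9% of all genes above background were lowest. B6-ChrY SJL replicate 1 held it for 10 of the 40, where 18.9% of all genes above background were lowest. The mean over the 40 genes of the value minus each gene's own mean was −0.10, −0.09 and 0.02 in B6-ChrY SJL replicates 1, 2 and 3, and 0.05, −0.04 and 0.15 in B6 replicates 1, 2 and 3. B6-ChrY SJL replicate 3 thus lay above B6 replicate 2, so the strains overlapped on this mean. The median SD of the 39 genes above background was 0.106 in B6-ChrY SJL and 0.122 in B6, beside 0.0838 and 0.0815 for all genes above background. Without B6 replicate 3 it was 0.0545 in B6, an SD over 2 pools, beside 0.0691 for all genes. The wider median spread in B6 thus depended on that pool, while for Fos, Fosb and Klf4 the outlying B6 pool was replicate 2.

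**Figure D2:**
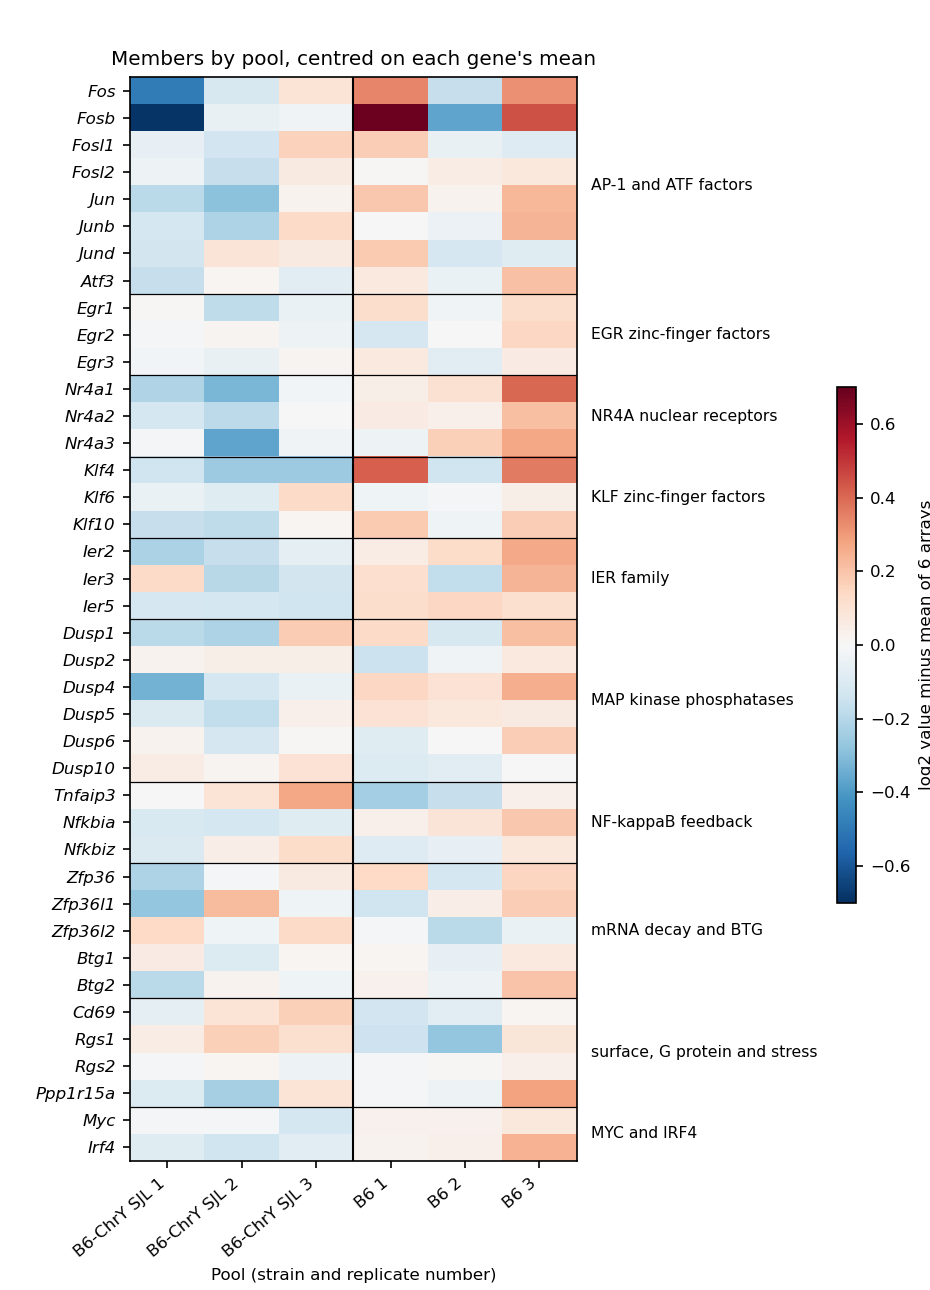
Log2 value of each gene minus its mean over the 6 arrays (colour, red above and blue below the mean), with genes in rows by role and pools in columns, B6-ChrY SJL left of the black line and B6 right of it. B6 replicate 3 held the highest value for 23 of the 40 genes, and Fos and Fosb differed most between pools of one strain.

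AP-1 is a pair of FOS and JUN proteins, and the 8 AP-1 and ATF genes had a median log2 fold change of −0.14. Jun, the founding JUN protein, was the only one of them at an unadjusted p under 0.05. Jun was at 11.31, 11.21 and 11.52 in the 3 B6-ChrY SJL pools and at 11.68, 11.52 and 11.73 in the 3 B6 pools. The strains did not overlap, but B6-ChrY SJL replicate 3 and B6 replicate 2 were equal to the second decimal. Its log2 fold change was −0.30 (SE 0.10, adjusted p = 0.376). Such separation of the pools, lower in B6-ChrY SJL, was seen for 10 of the 40 genes and for 9.42% of all tested clusters (12.2% of those above background), and the opposite separation for 1 gene and 7.68% (7.95% of those above background).

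Fos, the AP-1 partner of JUN, and its relative Fosb had the widest spread between pools of one strain. Fos was at 9.58, 9.95 and 10.16 in B6-ChrY SJL pools and at 10.41, 9.90 and 10.39 in B6 pools. Fosb was at 7.90, 8.53 and 8.55 in B6-ChrY SJL pools and at 9.27, 8.21 and 9.03 in B6 pools. For both genes B6 replicate 2 lay inside the B6-ChrY SJL range while the other B6 pools lay above all B6-ChrY SJL pools, and B6-ChrY SJL replicate 1 was the lowest of all. The pooled SD was 0.471 for Fosb and 0.291 for Fos, larger than for 99.9% and 99.4% of the genes above background. Fos averaged 9.90 ± 0.30 in B6-ChrY SJL and 10.23 ± 0.29 in B6 (SD, n = 3 each), a log2 fold change of −0.34 (SE 0.17, adjusted p = 0.537), which was −0.17 without B6-ChrY SJL replicate 1. The log2 fold change of Fosb was −0.51 with a 95% interval of −1.14 to 0.11 (adjusted p = 0.543), which includes 0. It was −0.30 without B6-ChrY SJL replicate 1 or without B6 replicate 1, and −0.82 (adjusted p = 0.403) without B6 replicate 2. Fosl1, Fosl2, Junb, Jund and the stress-induced Atf3 lay between −0.15 and 0.01.

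An order of pools like that of Fos, with B6 replicate 2 lowest of the B6 pools and B6-ChrY SJL replicate 3 highest of the B6-ChrY SJL pools, was found after the values were seen and is given as a description. It held for 11 of the 40 genes (27.5%), namely Fos, Fosb, Jun, Junb, Egr3, Nr4a2, Klf10, Dusp1, Dusp4, Ppp1r15a and Zfp36, and for 8.39% of the 12278 genes above background. These genes share the 6 arrays and are not independent of each other.

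**Figure D3:**
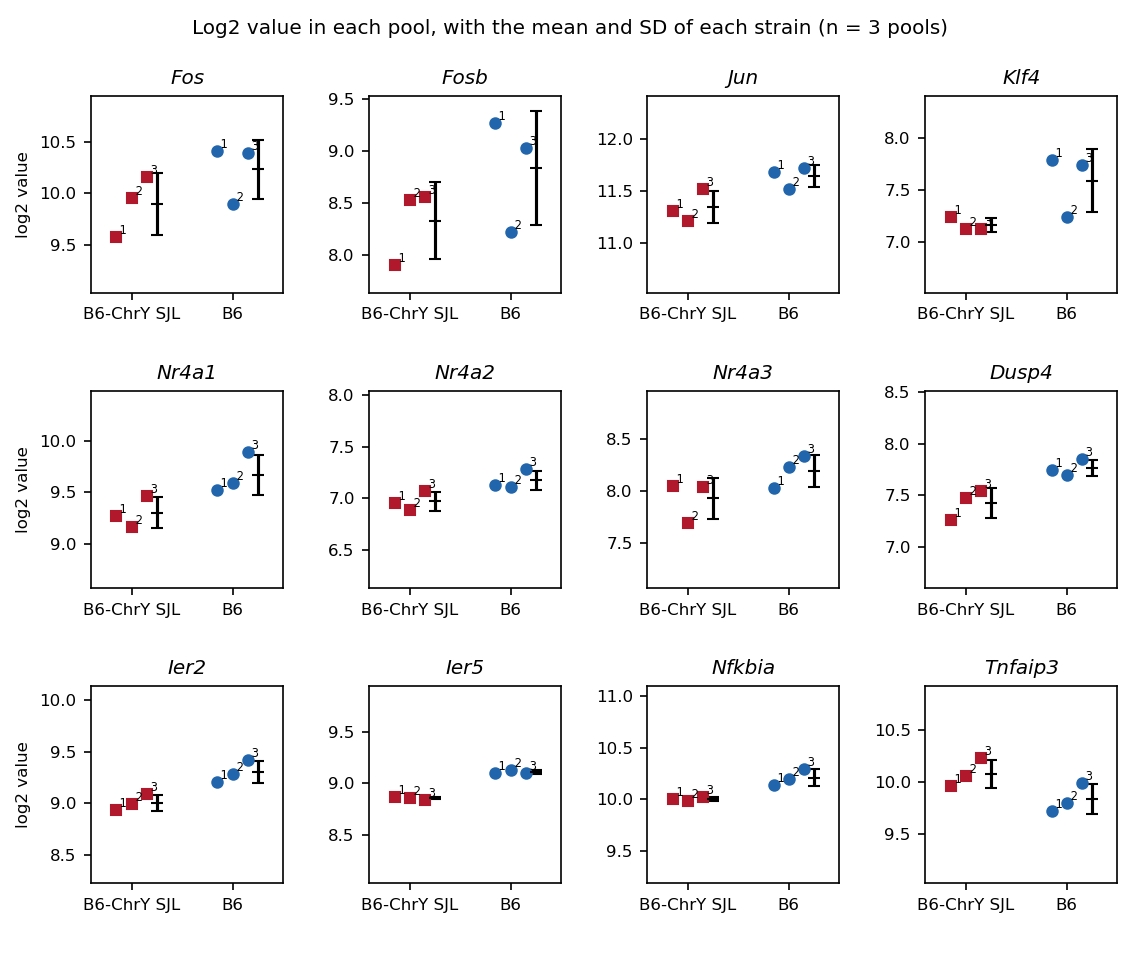
Log2 value (vertical axis, every panel spanning the same range of log2 units) of 12 genes in each pool, B6-ChrY SJL as red squares on the left and B6 as blue circles on the right, numbered by replicate, with the mean and SD of each strain (n = 3 pools). Fos, Fosb and Klf4 have a B6 replicate 2 far below the other B6 pools, while Ier5 pools of one strain nearly coincide.

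The 3 EGR genes encode zinc-finger factors, and 0 of them reached an unadjusted p under 0.05. Egr1, which the ERK pathway induces, was at 8.95, 8.77 and 8.89 in B6-ChrY SJL pools and at 9.06, 8.92 and 9.06 in B6 pools. B6 replicate 2 lay between the B6-ChrY SJL pools. The log2 fold change of Egr1 was −0.14 (95% interval −0.32 to 0.03, adjusted p = 0.544), and Egr2 and Egr3, which restrain T cell activation, were at −0.02 and −0.04.

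The NR4A genes encode orphan nuclear receptors, and Nr4a1 (Nur77) is widely used as a reporter of T-cell receptor signals. Nr4a1 was at 9.27, 9.17 and 9.46 in B6-ChrY SJL pools and at 9.52, 9.59 and 9.89 in B6 pools. Every B6-ChrY SJL pool was below every B6 pool, and B6 replicate 3 stood highest. Its log2 fold change was −0.37 (SE 0.11, adjusted p = 0.368). In a bulk sample, fewer cells that express a gene and less RNA per cell cannot be told apart. Nr4a2 was at 6.95, 6.89 and 7.07 in B6-ChrY SJL pools and at 7.13, 7.11 and 7.28 in B6 pools, again without overlap, and its log2 fold change was −0.20 (SE 0.08, adjusted p = 0.433). Nr4a3 was at 8.05, 7.70 and 8.04 in B6-ChrY SJL pools and at 8.03, 8.23 and 8.33 in B6 pools. Here the strains overlapped, since B6 replicate 1 was below 2 of the B6-ChrY SJL pools, and the log2 fold change of −0.27 (SE 0.12) had an adjusted p of 0.474. Without B6-ChrY SJL replicate 2 it was −0.15.

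The promoters of the 3 NR4A genes share a sequence feature that the choice of the genes did not use. RefSeq promoters (250 bases before to 50 after the first listed start, build GRCm38.p6) were matched for 29 of the 40 genes and searched on both strands. The short form of the cyclic AMP response element, TGACG, a motif that CREB binds, occurred in 16 of the 29 promoters (55.2%) and in 21% of all 27025 promoters. TGACG holds a CG pair, and base composition was not matched between the 29 and all promoters. At least 4 short sites were found in 3 of the 29, which were Nr4a1, Nr4a2 and Nr4a3, and in 68 promoters (0.252%) of the whole table. The cut of 4 was not planned and equals the count of these 3 genes, so this share is only a description. The full element TGACGTCA, which counts as 2 short sites, was in Dusp1, Btg2 and Ppp1r15a (10.3% of the 29, 1.88% of all). The CArG box, the site of the serum response factor, was in Dusp5 and Zfp36 (6.9% of the 29, 1.57% of all). The AP-1 site TGANTCA was in Zfp36l1 and Tnfaip3 (6.9% and 7.93%), and the EGR site GCGTGGGCG in 0 of the 29 (0.625% of all). A match is only a run of letters in this window. The promoters of the 3 NR4A genes are printed for this feature, Nr4a2 and Nr4a3 having been added after their counts were seen. Those of Ier5, Jun and Nfkbia, which with Nr4a1 had an entry among the 6 genes of smallest p, and of Fos are printed beside them. Capitals mark TGACG or its reverse complement CGTCA, and the strand is that of the gene.
Nr4a1, chr15:101266596-101266895, plus strand: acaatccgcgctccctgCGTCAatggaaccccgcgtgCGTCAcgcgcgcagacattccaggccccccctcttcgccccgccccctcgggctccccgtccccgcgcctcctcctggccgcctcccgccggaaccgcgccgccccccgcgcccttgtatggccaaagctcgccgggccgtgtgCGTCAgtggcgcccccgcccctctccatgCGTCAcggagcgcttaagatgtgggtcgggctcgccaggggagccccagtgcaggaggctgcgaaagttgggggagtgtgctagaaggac
Nr4a2, chr2:57123954-57124253, minus strand: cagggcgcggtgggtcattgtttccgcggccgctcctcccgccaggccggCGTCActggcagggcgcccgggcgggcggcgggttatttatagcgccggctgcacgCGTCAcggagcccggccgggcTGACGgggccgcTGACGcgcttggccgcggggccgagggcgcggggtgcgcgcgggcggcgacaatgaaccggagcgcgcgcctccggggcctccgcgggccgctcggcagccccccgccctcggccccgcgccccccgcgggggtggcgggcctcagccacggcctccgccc
Nr4a3, chr4:48045055-48045354, plus strand: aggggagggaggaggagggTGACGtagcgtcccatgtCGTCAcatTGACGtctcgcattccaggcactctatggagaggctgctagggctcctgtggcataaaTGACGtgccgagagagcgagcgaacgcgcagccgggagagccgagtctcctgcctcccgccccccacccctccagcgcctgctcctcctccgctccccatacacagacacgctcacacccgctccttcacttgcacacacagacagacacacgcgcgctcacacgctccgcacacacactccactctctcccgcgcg
Fos, chr12:85473640-85473939, plus strand: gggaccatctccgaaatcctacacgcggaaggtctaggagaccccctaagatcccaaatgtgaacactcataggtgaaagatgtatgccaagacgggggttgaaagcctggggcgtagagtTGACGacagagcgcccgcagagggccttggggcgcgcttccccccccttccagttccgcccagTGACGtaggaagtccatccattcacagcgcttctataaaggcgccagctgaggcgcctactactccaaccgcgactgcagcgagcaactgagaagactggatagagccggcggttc
Ier5, chr1:155099587-155099886, minus strand: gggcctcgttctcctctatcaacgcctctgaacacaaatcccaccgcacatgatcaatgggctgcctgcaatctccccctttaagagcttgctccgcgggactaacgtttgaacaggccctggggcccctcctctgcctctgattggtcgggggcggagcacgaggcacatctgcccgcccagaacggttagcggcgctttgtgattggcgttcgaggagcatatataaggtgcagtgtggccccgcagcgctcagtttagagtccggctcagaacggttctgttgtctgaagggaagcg
Jun, chr4:95052173-95052472, minus strand: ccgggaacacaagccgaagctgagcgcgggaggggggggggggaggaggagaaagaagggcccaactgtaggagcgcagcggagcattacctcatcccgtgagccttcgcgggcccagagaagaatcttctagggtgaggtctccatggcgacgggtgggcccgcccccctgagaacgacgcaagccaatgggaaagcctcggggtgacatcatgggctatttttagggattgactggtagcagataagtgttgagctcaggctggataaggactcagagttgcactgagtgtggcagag
Nfkbia, chr12:55492598-55492897, minus strand: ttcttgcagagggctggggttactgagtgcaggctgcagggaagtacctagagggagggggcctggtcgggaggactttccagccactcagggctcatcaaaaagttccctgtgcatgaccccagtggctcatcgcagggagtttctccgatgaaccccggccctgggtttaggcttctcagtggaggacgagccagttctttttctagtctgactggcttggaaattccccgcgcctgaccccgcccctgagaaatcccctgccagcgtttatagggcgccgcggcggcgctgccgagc
The 4 short sites of Nr4a1 begin at −233, −213, −69 and −40 from the start, those of Nr4a2 at −200, −144, −123 and −111, and those of Nr4a3 at −231, −213, −205 and −147. Fos has 2 such sites, at −129 and −66, and Ier5, Jun and Nfkbia have 0.

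Of the KLF zinc-finger genes, Klf4 and Klf10 were lower at an unadjusted p under 0.05 and Klf6 was at a log2 fold change of 0.00 to the second decimal. Klf4, known for restraining T cell proliferation, was at 7.24, 7.12 and 7.12 in B6-ChrY SJL pools and at 7.79, 7.24 and 7.74 in B6 pools. B6 replicate 2 was just below B6-ChrY SJL replicate 1, and the other B6 pools stood well above. Klf4 had a log2 fold change of −0.43 (SE 0.14, adjusted p = 0.376), and its SD was 0.07 in B6-ChrY SJL and 0.31 in B6. Klf10, a gene induced early by TGF-β, was at 7.28, 7.26 and 7.45 in B6-ChrY SJL pools and at 7.63, 7.41 and 7.61 in B6 pools. It overlapped in the same pool, B6 replicate 2, with a log2 fold change of −0.22 (SE 0.09, adjusted p = 0.447).

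Of the 3 IER genes, Ier2 and Ier5 were lower at an unadjusted p under 0.05. Ier5, whose product modulates the heat-shock factor HSF1, was at 8.87, 8.86 and 8.85 in B6-ChrY SJL pools and at 9.10, 9.13 and 9.10 in B6 pools. It differed less between pools of a strain (SD 0.01 and 0.02, n = 3 each) than between strains, with a log2 fold change of −0.25 (95% interval −0.39 to −0.12, adjusted p = 0.292), the smallest adjusted p of the 40 genes. Ier2, a nuclear protein, was at 8.94, 8.99 and 9.09 in B6-ChrY SJL pools and at 9.21, 9.28 and 9.42 in B6 pools, without overlap. Its log2 fold change was −0.30 (SE 0.08, adjusted p = 0.323). Ier3, at −0.12, was below background and is not read further.

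The MAP kinase phosphatases, which turn off ERK, JNK and p38, did not share a direction. Dusp4, a nuclear phosphatase of ERK and JNK, was at 7.26, 7.47 and 7.55 in B6-ChrY SJL pools and at 7.74, 7.70 and 7.85 in B6 pools. All B6-ChrY SJL pools were below all B6 pools, and the log2 fold change was −0.33 (SE 0.09, adjusted p = 0.323). Dusp5, a nuclear ERK phosphatase, was at 8.07, 8.00 and 8.21 in B6-ChrY SJL pools and at 8.27, 8.25 and 8.23 in B6 pools, a separation that B6-ChrY SJL replicate 3 brought close to 0. Dusp5 had a log2 fold change of −0.16 (95% interval −0.32 to 0.01, adjusted p = 0.486). Dusp10, which acts on p38 and JNK, was the only one of the 40 genes with every B6-ChrY SJL pool above every B6 pool. It was at 10.57, 10.53 and 10.62 in B6-ChrY SJL pools and at 10.42, 10.43 and 10.51 in B6 pools. Dusp10 had a log2 fold change of 0.12 (95% interval −0.03 to 0.27, adjusted p = 0.555). Dusp1, Dusp2 and Dusp6 lay between −0.15 and 0.07.

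Among the feedback genes of NF-κB, Nfkbia was lower and Tnfaip3 higher at an unadjusted p under 0.05. Nfkbia encodes IκBα, which holds NF-κB in the cytoplasm. It was at 10.00, 9.99 and 10.02 in B6-ChrY SJL pools and at 10.14, 10.20 and 10.30 in B6 pools, with no overlap. Nfkbia had a log2 fold change of −0.21 (SE 0.07, adjusted p = 0.376). Tnfaip3 encodes A20, a ubiquitin-editing enzyme that ends NF-κB signals. It was at 9.96, 10.05 and 10.23 in B6-ChrY SJL pools and at 9.72, 9.80 and 9.99 in B6 pools. B6 replicate 3 was above B6-ChrY SJL replicate 1, so the strains overlapped, and the log2 fold change of Tnfaip3 was 0.24 (SE 0.10, adjusted p = 0.447). Nfkbiz, a nuclear IκB, was at 0.05.

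The genes for mRNA decay and the antiproliferative BTG proteins had 0 of 5 members at an unadjusted p under 0.05. Zfp36l1, which binds AU-rich mRNAs, was at 9.95, 10.44 and 10.19 in B6-ChrY SJL pools and at 10.08, 10.26 and 10.39 in B6 pools. Its pools of one strain spread more than those of 96.2% of genes above background, and the strains overlapped fully. Zfp36l1 had a log2 fold change of −0.05 (95% interval −0.35 to 0.25). Zfp36, Zfp36l2, Btg1 and Btg2 lay between −0.13 and 0.16.

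Of the 4 genes for a surface antigen, G protein regulators and the stress response, 2 were above 0, 2 were below, and 0 reached an unadjusted p under 0.05. Cd69, the early activation antigen that keeps T cells in the lymph node, was at 10.24, 10.40 and 10.47 in B6-ChrY SJL pools and at 10.17, 10.23 and 10.32 in B6 pools. The strains overlapped, and the log2 fold change of Cd69 was 0.13 (95% interval −0.05 to 0.32, adjusted p = 0.601). Rgs1, which dampens chemokine receptor signals, was at 0.22 (SE 0.10, adjusted p = 0.471), while Rgs2 was at −0.02 and Ppp1r15a, the phosphatase subunit of the stress response, at −0.16. Myc, which drives growth of activated T cells, was at 10.97, 10.97 and 10.85 in B6-ChrY SJL pools and at 11.01, 11.01 and 11.05 in B6 pools. The pools of Myc did not overlap, but the log2 fold change was only −0.09 (SE 0.06, adjusted p = 0.649). Irf4, a factor whose level follows the strength of the T-cell receptor signal, was at 8.16, 8.10 and 8.17 in B6-ChrY SJL pools and at 8.26, 8.28 and 8.49 in B6 pools. It did not overlap either, at −0.20 (SE 0.08, adjusted p = 0.437), and at −0.13 without B6 replicate 3.

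Beyond the 40 genes, 44 other early response genes were measured. This list, like the 40 genes, was chosen with earlier results of these data known, and it shares their arrays. At an unadjusted p under 0.05, 10 were lower and 0 higher in B6-ChrY SJL cells. Of all tested clusters, 5.92% were lower and 4.69% higher in that fit, and of those above background 7.16% and 3.99%. Of the 44 genes, 0 passed the false discovery rate in limma, and their median log2 fold change was −0.08. The 4 with the smallest p were Cish, a feedback inhibitor of cytokine signals (−0.27, adjusted p = 0.254), the stress gene Gadd45b (−0.51, adjusted p = 0.26), the costimulatory receptor Tnfrsf9 (−0.29, adjusted p = 0.282) and the small GTPase Gem (−0.30, adjusted p = 0.292). Of 27 measured genes for the kinases and factors that signal to these promoters, only Relb, an NF-κB subunit, was lower at that threshold (−0.29, SE 0.06, adjusted p = 0.254). The next 3 by p were Elk3 (−0.13), Rps6ka5 (−0.20) and Mapk8 (−0.15), and the median of this list was −0.04.

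**Figure D4:**
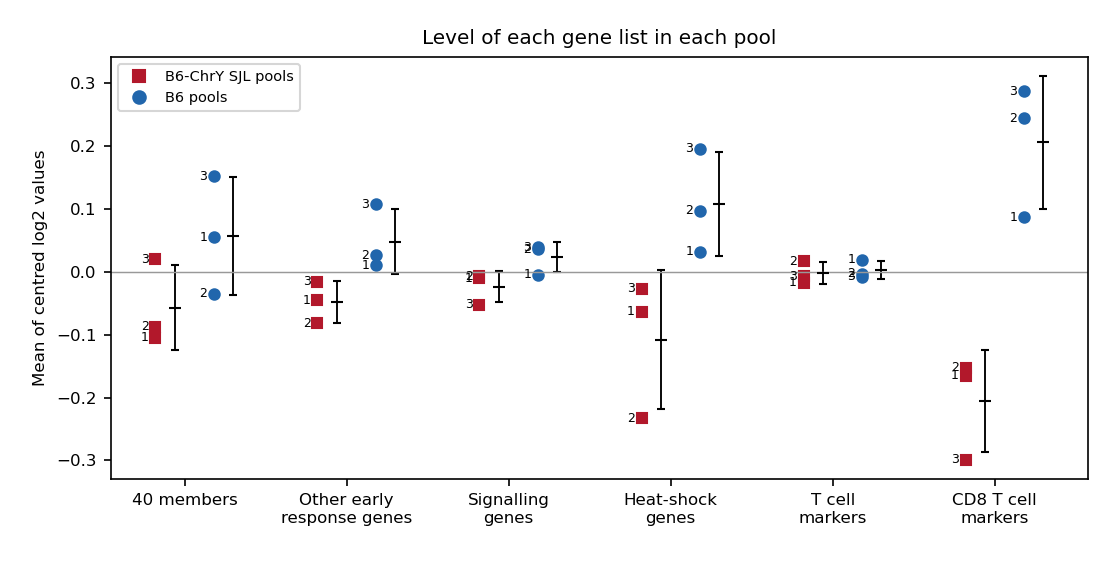
Mean over the genes of a list of the log2 value minus each gene's mean over the 6 arrays (vertical axis), for each pool numbered by replicate, B6-ChrY SJL as red squares left and B6 as blue circles right, with mean and SD (n = 3 pools). The 40 genes and the T cell markers overlap between strains, while the heat-shock, other early response, signalling and CD8 lists do not. Of the marker lists not drawn, natural killer, neutrophil and stroma markers do not overlap either. The B cell, myeloid and erythroid markers do. The closest pools of the signalling list are at −0.0072 (B6-ChrY SJL) and −0.0044 (B6). The heat-shock level includes Hspa1a, at a log2 fold change of −1.42.

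Of 10 measured heat-shock genes, 0 passed the false discovery rate in limma. At an unadjusted p under 0.05, 3 were lower and 0 higher (median −0.07), beside 5.92% and 4.69% of all tested clusters. The list levels were −0.06, −0.23 and −0.03 in the 3 B6-ChrY SJL pools and 0.03, 0.10 and 0.20 in the 3 B6 pools. Hspa1a, an inducible chaperone nearly identical in sequence to Hspa1b, was at 8.73, 8.52 and 9.32 in B6-ChrY SJL pools and at 10.40, 9.90 and 10.53 in B6 pools. Its log2 fold change was −1.42 (SE 0.22, adjusted p = 0.134), and B6 replicate 2 was again the lowest B6 pool. The other heat-shock genes lay between −0.35 and 0.14. Hspa1a enters the list levels above, and levels without it were not computed. The separation of the list therefore cannot be ascribed to its other genes. The co-chaperone genes Bag3 and Dnajb1 were at −0.27 and −0.13, and Hspb1, below background, at −0.35.

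In the lists of markers of other cells 0 genes passed the false discovery rate in limma. The counts below stand beside 5.92% of all tested clusters lower and 4.69% higher at an unadjusted p under 0.05. Cd8a and Cd8b1, markers of CD8 T cells, were at −0.54 (adjusted p = 0.277) and −0.28 (adjusted p = 0.376), and the level of the pair was −0.17, −0.15 and −0.30 in B6-ChrY SJL pools and 0.09, 0.24 and 0.29 in B6 pools. Of 11 B cell markers, 2 were higher at an unadjusted p under 0.05, H2-Ab1 (0.64, adjusted p = 0.398) and H2-Eb1 (0.37, adjusted p = 0.393), beside Ms4a1 (0.37, below background) and Pax5 (0.16), with a list level from −0.22 to 0.36 in B6-ChrY SJL pools and from −0.20 to −0.06 in B6 pools. Of 7 stroma markers, Pdpn, Col1a2 and Col3a1 were higher at an unadjusted p under 0.05, at 0.20, 0.18 and 0.18, the smallest adjusted p being 0.392, and Lyve1 was at 0.05. Among 8 myeloid markers only Itgax (0.17, below background) had an unadjusted p under 0.05, ahead of Itgam (−0.10), Adgre1 (−0.10) and Cd14 (0.12). Of 5 natural killer markers (Gzma −0.14, Klrd1 −0.14, Klrb1c −0.13, Prf1 −0.03 first by p) and 5 neutrophil markers (Ngp 0.22, S100a8 0.12, Retnlg 0.06, S100a9 0.03 first by p, all 5 below background), 0 did, nor did Alas2 (−0.08), the only erythroid marker measured. Genes of regulatory and activated T cells were looked up after the values of the 40 genes were known. Foxp3, the factor of regulatory T cells, was at 9.27, 9.30 and 9.30 in B6-ChrY SJL pools and at 9.44, 9.54 and 9.51 in B6 pools (log2 fold change −0.21, adjusted p = 0.359). Ctla4, an inhibitory receptor of regulatory and activated T cells, was at −0.30 (adjusted p = 0.286), and Cd44, a marker of memory and activated T cells, at −0.26 (adjusted p = 0.381). Ikzf2, Il2ra and Ccr7 were at −0.18, −0.02 and 0.11. The part of the heat-shock genes, of other cells and of T cell subsets in the differences of the 40 genes was not tested.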

How the data were processed

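RNA of 6 pools of sorted CD4+TCRβ+ cells (50 ng, amplified) was measured on Mouse Gene 1.0 ST arrays of Affymetrix. The authors processed the signals with RMA in Partek, which corrects background, makes array distributions equal by quantiles and summarizes probes by median polish, and deposited the results as log2 values, with 1 per cluster on each array. Quantile normalization makes a difference relative to the other transcripts, but small shifts between arrays remained in the cluster values. The upper quartiles were 8.13, 8.17 and 8.14 in B6-ChrY SJL replicates 1, 2 and 3. They were 8.16, 8.18 and 8.19 in B6 replicates 1, 2 and 3. GCOS and the build mm9 also appear in the submitters' processing notes. The log2 values were used as deposited.

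Cluster names came from the platform annotation, updated to RefSeq symbols. The 23410 named clusters (1621 with several symbols, tested and not named) entered a limma model (version 3.58.1, R 4.3.3, with lmFit followed by eBayes), and p-values were adjusted over all of them by Benjamini-Hochberg. Pools count as biological replicates, as the methods describe them. The genes and lists were chosen with earlier results of these data known. Values per pool are given for genes at an unadjusted p under 0.05, genes without overlap, the 4 with the largest SD above background, and Fos, Jun, Egr1, Nr4a1, Cd69 and Myc, and for Nr4a3, shown beside its relatives. Other genes are given by range, the 4 of smallest p from each further list, and promoters for those of the 6 genes of smallest p that had an entry (Ier5, Nr4a1, Jun and Nfkbia) and for Fos, with Nr4a2 and Nr4a3 added after their motif counts were seen. Genes of the lists without a named cluster were not used here. Alternatives were other variance models, filters and normalizations, averaging clusters, a replicate block and each array left out. Python 3.11.15 searched the promoters and matplotlib 3.10.9 drew the figures.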

Additional observations from a re-analysis of the deposited data

How the results depend on the processing

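Of the 40 genes, 0 passed a false discovery rate of 0.05 in limma or in any of 14 alternatives, in which the smallest adjusted p of any gene was 0.108 (Ier5). The direction was the same in every alternative for 31 genes and turned in at least 1 for the other 9. Ier2, Ier5 and Dusp4 kept an unadjusted p under 0.05 in all 14, Nr4a1 and Nfkbia in 13, Jun and Klf4 in 12, Nr4a2 in 10, Irf4 and Tnfaip3 in 8 and Klf10 in 7. The methods' unmoderated model gave 4 genes lower (Ier5, Ier2, Dusp4 and Nfkbia) and 1 higher, Dusp10. The count of higher genes was 4 with an intensity trend and robust variances, where 5.07% of all clusters were higher. It was 2 among clusters above background (5.09%) and 0 with all deposited clusters (4.84%). Repeated quantile normalization gave 2 (5.04%), and the mean over clusters also gave 2 (4.62%). Genes without overlap and higher numbered 2 with median-centred arrays and 2 with repeated quantile normalization. The signalling list had 3 lower genes in the unmoderated model and 2 with the trend. Egr3 turned to 0.00744 under repeated quantile normalization. The causes were not tested.

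Leaving out each array in turn gave 6 to 13 genes lower and 0 to 2 higher at an unadjusted p under 0.05. The shares over all clusters were 4.31% to 5.69% lower and 3.3% to 5.34% higher. The count of lower genes was 6 without B6-ChrY SJL replicate 2 or B6 replicate 3, and that of higher genes was 2 without B6-ChrY SJL replicate 1 or B6 replicate 3 and 0 when B6-ChrY SJL replicate 3, B6 replicate 1 or B6 replicate 2 was left out. Genes without overlap numbered 10 to 19 lower (16 without B6-ChrY SJL replicate 3 and 19 without B6 replicate 2, where 13.4% and 14.5% of all clusters were) and 1 to 5 higher (4 without B6-ChrY SJL replicate 1 and 5 without B6 replicate 3, where 12.8% and 12.6% of all clusters were), since fewer pools separate more easily by construction. The signalling list had 1 to 3 lower genes and the other early response list 6 to 9, with 6 without B6 replicate 3. The median of the 40 genes ranged from −0.18 to −0.07, and that of the heat-shock genes from −0.11 to 0.00497, its highest value being without B6-ChrY SJL replicate 2. Of the 11 genes at an unadjusted p under 0.05, only Irf4 moved by over 1.5 times. Of the others with values per pool, Egr1 was −0.0926 without B6-ChrY SJL replicate 2, and Cd69 was 0.0811 and Myc −0.0538 without B6-ChrY SJL replicate 3. Where the direction turned, log2 fold changes ranged from −0.11 to 0.0597 (Fosl1), −0.18 to 0.0697 (Zfp36l1) and −0.069 to 0.0408 (Klf6). Jund spanned −0.0419 to 0.11, Btg1 −0.0491 to 0.0265, Nfkbiz −0.00277 to 0.11, Egr2 −0.07765 to 0.05165 and Dusp6 −0.12 to 0.0135.

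To compare replicate numbers, each cluster above background was taken minus its mean over the 3 pools of the strain. On these deviations, which sum to 0 within a strain, same-numbered pools of the strains had correlations of −0.0109, −0.0315 and 0.0014. Pools of different numbers had −0.0464 to 0.0542. With so few pools, these values cannot show whether shared numbers pair the samples. On the mean level of the genes described here, replicate 3 was highest in both strains, at 0.02 in B6-ChrY SJL and 0.15 in B6. The lowest pool was replicate 1 in B6-ChrY SJL and replicate 2 in B6. The main model did not use the numbers. With the replicate number as a block, 10 genes were lower and 1 was higher, beside 5.12% and 4.33% of all clusters, and 0 passed the false discovery rate. Signal over background limits Ier3, which gave no value when dim clusters were left out.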
